A study of Mus musculus with 25 samples.

Results

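The miR-200 family genes of the mouse are Mir200a, Mir200b, Mir429, Mir141 and Mir200c. These 5 genes were taken by symbol from a table of 24358 genes measured by all-RNA-seq in sperm, of which 1157 were microRNA genes. All 5 were found, all 5 had a successful estimate in every condition, and none lay near 0: the lowest value was 10.2 for Mir200c in FVB.CTL.F1. The rule used their symbols and no measured value.

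The study asked whether prenatal exposure to the phthalate plasticizer di(2-ethylhexyl)phthalate (DEHP) altered sperm RNA, and whether the answer depended on the genetic background or the generation. Pregnant females received DEHP at 300 mg/kg/day in corn oil, or corn oil alone, by mouth from embryonic day 9 to 19, and sperm that swam out of the cauda epididymides of male descendants was sequenced at a labelled age of 14 weeks. The condition C57.CTL.F1 held C57BL/6J sons of females given corn oil, and C57.D300.F1 held C57BL/6J sons of females given DEHP. FVB.CTL.F1 and FVB.D300.F1 were the same pair of exposures in FVB/N. C57.D300.F2 held C57BL/6J males of the second generation of the DEHP lineage, for which no vehicle second generation was analysed here. Each condition had 5 libraries. Libraries of both first-generation C57BL/6J conditions (10) carry the label of a re-analysis, and 15 libraries are new.

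MicroRNAs are cut from hairpin transcripts into mature strands that guide Argonaute proteins to messenger RNAs, largely through the bases next to the 5′ end called the seed. The miR-200 family is best known from epithelia, where it represses the transcription factors Zeb1 and Zeb2, which in turn repress E-cadherin and the miR-200 genes themselves. Members are abundant in epithelial tissues, including the lining of the epididymis, through which sperm pass while they mature.

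The mature 3p strands are shown because their seeds divide the family into a pair and a trio that differ by 1 seed base. They were read from RefSeq on GRCm38.p6, run 5′ to 3′, and carry the seed (bases 2 to 8) in capitals.
mmu-miR-200a-3p: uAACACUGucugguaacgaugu
mmu-miR-141-3p: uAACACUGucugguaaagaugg
mmu-miR-200b-3p: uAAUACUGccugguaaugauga
mmu-miR-200c-3p: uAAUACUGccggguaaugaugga
mmu-miR-429-3p: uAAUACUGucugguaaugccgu
Among 1738 mature mouse microRNAs of that table, 2 had the seed AACACUG and 3 had AAUACUG, which were the members themselves. Counted from the 5′ end, miR-200a-3p and miR-141-3p differed at C17A and U22G, and 20 of 22 bases were identical. miR-200b-3p and miR-200c-3p differed at U11G and A22G over the 22 bases compared. The seed change between miR-200a-3p and miR-200b-3p was C4U.

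The gene count covers the whole hairpin and does not separate the 5p from the 3p strand. For the pair with the seed AACACUG, the hairpins are printed with both mature strands in capitals.
Mir141 hairpin: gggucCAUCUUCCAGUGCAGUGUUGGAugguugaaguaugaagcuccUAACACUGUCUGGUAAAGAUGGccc
Mir200a hairpin: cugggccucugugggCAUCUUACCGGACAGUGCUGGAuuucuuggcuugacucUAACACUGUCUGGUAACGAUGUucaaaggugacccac
How reads that align to more than 1 member were divided is not given in the sources used here, so the split between near-identical strands is uncertain to that extent.

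The genes form 2 clusters, both on the minus strand of GRCm38 (mm10). Mir429 (chr4:156053905-156053987), Mir200a (chr4:156054896-156054985) and Mir200b (chr4:156055681-156055750) span 1846 bases of chromosome 4, inside an intron of Ttll10, a gene of the tubulin tyrosine ligase-like family, on the same strand. Mir429 also overlaps an exon of the noncoding gene Gm13648. Mir141 (chr6:124717914-124717985) and Mir200c (chr6:124718322-124718390) span 477 bases of chromosome 6 between Phb2 and Ptpn6. Both lie in an intron of the noncoding gene Gm15884, and Mir141 overlaps an exon of the noncoding gene Gm29008. Each cluster holds both seeds.

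The values were Cuffdiff's estimated counts, 1 per gene and condition, made from 5 libraries at once. Values of single libraries were not analysed here, so no difference could be tested, and no p-value is given. The error printed is the standard deviation (SD) of Cuffdiff's count model. It is not a spread measured between the libraries. A difference was compared with the model SD of the difference, taken as the root of the summed variances. Summed counts over all genes were between 6921688 and 8602900 per condition. In C57BL/6J, microRNA genes took 1.49% of the count with vehicle, 1.62% with DEHP and 2.72% in the second generation, and in FVB/N 0.881% with vehicle and 1.35% with DEHP. Between 84 and 117 microRNA genes reached 10 counts in a condition.

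Mir141 was the member with the widest range. In C57BL/6J its estimated count was 445 ± 132 with vehicle, 524 ± 196 with DEHP and 624 ± 158 in the second generation (model SD). In FVB/N it was 67.4 ± 20.2 with vehicle and 76.5 ± 22.0 with DEHP. It was high in all 3 C57BL/6J conditions and low in both FVB/N conditions. Going down the order of levels, the only neighbours further apart than the model SD of their difference were C57.CTL.F1 and FVB.D300.F1, by 369 counts against an SD of 134. Among microRNA genes ranked by estimated count, Mir141 stood between 15 and 17 in C57BL/6J and at 29 and 32 in FVB/N.

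Mir200c, its neighbour 5′ on the same strand, was counted in C57BL/6J at 19.5 ± 7.81 with vehicle, 26.0 ± 10.6 with DEHP and 19.7 ± 7.83 in the second generation, and in FVB/N at 10.2 ± 4.90 with vehicle and 16.5 ± 7.00 with DEHP. Both FVB/N values were lower than the 3 C57BL/6J values, but no neighbours in the order differed by more than the model SD. At these low counts the model SD was large beside the value.

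Mir200a, the most abundant gene of the chromosome 4 cluster, was counted in C57BL/6J at 51.7 ± 16.5 with vehicle, 54.2 ± 17.0 with DEHP and 132 ± 34.7 in the second generation, and in FVB/N at 97.9 ± 26.2 with vehicle and 87.4 ± 24.0 with DEHP. Mir200b was counted at 26.4 ± 9.70, 35.0 ± 12.4, 65.5 ± 19.7, 59.9 ± 17.7 and 66.8 ± 19.6 in the same order. For both genes the 3 conditions with new libraries were higher than both re-analysed conditions. That gap was the only step in the order beyond the model SD, at 33.1 counts against 29.4 for Mir200a and 24.9 against 21.6 for Mir200b. Mir429 was counted at 21.3 ± 8.43, 29.7 ± 11.1, 42.9 ± 13.9, 17.9 ± 7.28 and 24.8 ± 9.57, again in that order. It had no step beyond the model SD, and did not divide the conditions by strain or by library set.

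**Figure D1:**
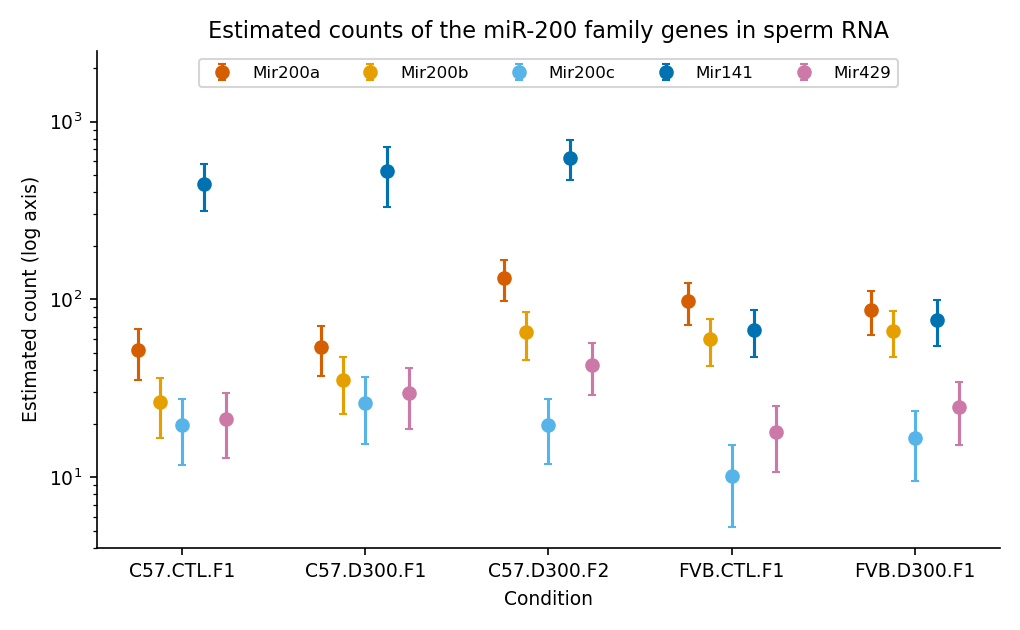
Estimated count on a log axis of each miR-200 family gene in the 5 conditions, with bars of 1 model SD on each side. Mir141 lies between 445 and 624 in the C57BL/6J conditions and at 67.4 and 76.5 in FVB/N, while the other genes lie between 10.2 and 132.

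Per 100 bases of hairpin, Mir141 had 619, 728 and 867 counts in the C57BL/6J conditions, ahead of Mir200a at 57.5, 60.3 and 147. The mature strands of the members are 21 to 23 bases long, so reads need not scale with hairpin length. In FVB.CTL.F1 the order of the leading genes was Mir200a at 109, Mir141 at 93.6 and Mir200b at 85.6. In FVB.D300.F1 it was Mir141 at 106, Mir200a at 97.1 and Mir200b at 95.4. By count alone Mir200a was ahead there, at 87.4 ± 24.0 against 76.5 ± 22.0 for Mir141 (model SD). Mir200c and Mir429 were the lowest pair per length in every condition, between 14.7 and 51.6 counts.

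The make-up of the family within a condition does not depend on how conditions were scaled to each other. In C57BL/6J, Mir141 supplied 78.9% of the summed family count with vehicle, 78.3% with DEHP and 70.6% in the second generation. In FVB/N it supplied 26.6% with vehicle and 28.1% with DEHP. The count of the chromosome 6 cluster divided by that of the chromosome 4 cluster was 4.68, 4.63 and 2.68 in those C57BL/6J conditions, and 0.441 and 0.520 in those of FVB/N. The larger part thus came from chromosome 6 in every C57BL/6J condition and from chromosome 4 in both FVB/N conditions.

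The ratio also differed between the seeds. Genes with the seed AACACUG (Mir200a and Mir141) had 7.40 times the count of those with AAUACUG (Mir200b, Mir200c and Mir429) in C57BL/6J with vehicle, 6.38 times with DEHP and 5.91 times in the second generation, against 1.88 times in FVB/N with vehicle and 1.52 times with DEHP. The pair with the seed AACACUG therefore supplied between 85.5% and 88.1% of the family count in C57BL/6J, and 65.3% and 60.3% in FVB/N. This strain difference rests on Mir141. Mir200a alone had 51.7, 54.2 and 132 counts in C57BL/6J, against 67.1, 90.7 and 128 for the genes with AAUACUG. In FVB/N it had 97.9 and 87.4 counts against 88.0 and 108. Within the chromosome 6 cluster, Mir141 had 22.8, 20.2 and 31.7 times the count of Mir200c in the C57BL/6J conditions and 6.63 and 4.64 times in the FVB/N conditions. Within the chromosome 4 cluster the ratio of Mir200a to Mir200b stayed between 1.31 and 2.02 over all 5 conditions. Mir200b had 1.24, 1.18 and 1.53 times the count of Mir429 in C57BL/6J and 3.34 and 2.69 times in FVB/N. In log2 units, the model SD was 0.64 to 0.78 for the ratios of Mir200b to Mir429. It was 0.68 to 0.82 for those of Mir141 to Mir200c.

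**Figure D2:**
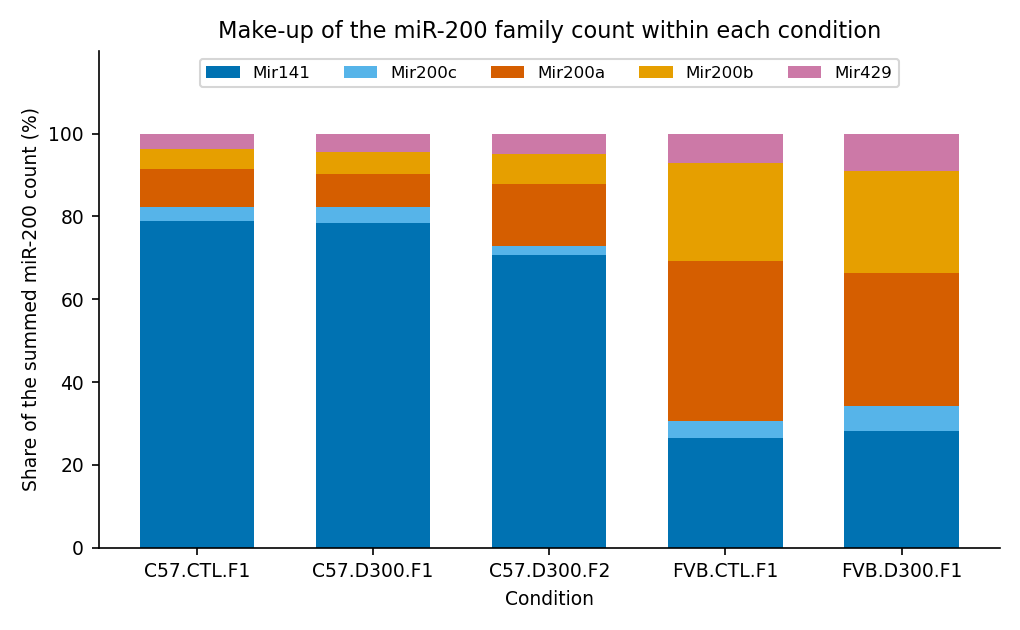
Share of the summed miR-200 count (%) supplied by each gene, as stacked bars for the 5 conditions. Mir141 takes 70.6% to 78.9% in the C57BL/6J conditions, and 26.6% and 28.1% in FVB/N, where Mir200a and Mir200b take most of the rest.

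The comparison of FVB.CTL.F1 with C57.CTL.F1 asked how the strains differed without DEHP. Mir141 was lower in FVB/N by 6.61 times (log2 ratio -2.71, a difference of -378 counts with a model SD of 133). Mir200a was higher in FVB/N by 1.89 times and Mir200b by 2.27 times, by 46.2 counts with a model SD of 31.0 and by 33.5 with 20.2. Mir200c was lower by 1.92 times, by -9.37 counts with a model SD of 9.22, and Mir429 differed by -3.31 counts with a model SD of 11.1. Thus 2 of 5 genes were higher and 2 lower by more than the model SD, where 15.9% and 25.3% of 17086 genes tested were. Mir141 alone passed 2 log2 units lower, as 8.88% of all genes tested did, and no member passed 2 log2 units higher (1.44%).

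MicroRNA genes as a class were lower in FVB.CTL.F1, which matters for reading these ratios. The median log2 ratio over the 115 other microRNA genes tested was -1.10, and that of all genes was -0.03. Of these 115 genes, 41 (35.7%) were at least 2 log2 units lower and 6 (5.22%) as far higher. A ratio below that of Mir141 was found for 31 of them, a ratio above that of Mir200a for 24 and a ratio above that of Mir200b for 19. Scaling to the sum of the other microRNA genes, which moved the median of all genes to 0.90, left Mir141 lower at -1.77, short of 2 log2 units, placed Mir200a at 1.84, Mir200b at 2.08 and Mir200c at -0.00, and turned Mir429 from -0.23 to 0.67. Other families stood lower in FVB/N: the sum of 8 miR-10, miR-99/100 and miR-125 genes was 81873 in C57BL/6J and 8294 in FVB/N, and that of 6 miR-34 and miR-449 genes was 431 and 18.9. The sum of the 5 miR-200 genes was 564 ± 134 and 253 ± 38.6, a log2 ratio of -1.15, against -3.30 and -4.44 for those families.

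**Figure D3:**
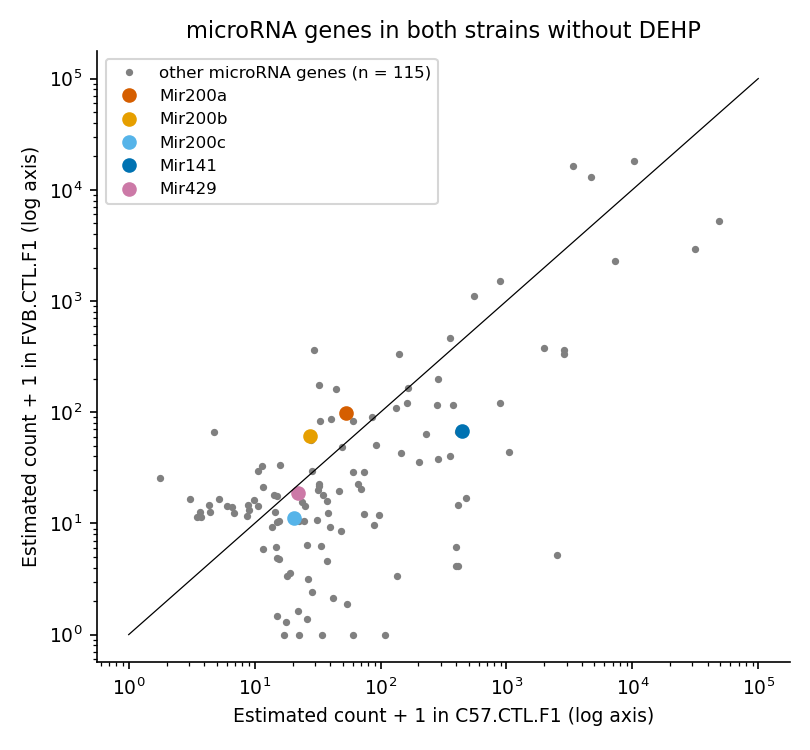
Estimated count with 1 added of the miR-200 genes and of 115 other microRNA genes for FVB.CTL.F1 (vertical) and C57.CTL.F1 (horizontal), both on log axes, with the line of equal counts. Mir141 lies below the line at 445 and 67.4 counts, and Mir200a and Mir200b lie above it.

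The same strain comparison among DEHP-exposed first-generation males gave 76.5 counts of Mir141 in FVB.D300.F1 and 524 in C57.D300.F1 (log2 ratio -2.76). Mir141 was again the only member past 2 log2 units lower, as 7.67% of 17377 genes were, and none was past 2 log2 units higher (2.65%). Mir200a (log2 ratio 0.68) and Mir200b (0.91) were higher by more than the model SD, as 19.4% of genes were, and Mir141 alone was lower by more than it (27.8%). The log2 ratio of Mir200c was -0.63 and that of Mir429 was -0.25, both within the model SD. With median-ratio factors from the other microRNA genes, chosen after seeing the data, these became 0.07 and 0.45. Under scaling to the sum of the other microRNA genes, both stayed below 0. Of those genes, 29.8% were at least 2 log2 units lower and 8.06% as far higher.

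In both comparisons the strains were sequenced in different library sets, so strain and library set cannot be told apart in them. FVB.CTL.F1 and C57.D300.F2 were both made of new libraries, but differ in exposure lineage and generation as well as strain. There, Mir141 was lower in FVB.CTL.F1 by 9.26 times (67.4 against 624 counts, log2 ratio -3.19), and it was the only member past 2 log2 units lower (2.5% of 16969 genes), with none past it higher (0.707%). Mir141, Mir200c and Mir429 were lower by more than the model SD, as 17.1% of genes were, and no member was higher by more than it (12%). Mir200a (-0.43) and Mir200b (-0.13) differed by less than the model SD, and with scaling to the sum of the other microRNA genes, which raised every log2 ratio, theirs became 1.06 and 1.35, that of Mir200c became 0.51 and that of Mir429 0.23, while Mir141 was at -1.71. The median over the other microRNA genes was -1.69, and 52 of them (41.6%) were at least 2 log2 units lower, with 2.4% as far higher.

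Prenatal DEHP was compared with vehicle within each strain, where the libraries came from 1 set. In C57BL/6J no member differed by more than the model SD, which 3.45% of 16825 genes exceeded upwards and 3.13% downwards. The log2 ratios were 0.07 for Mir200a, 0.40 for Mir200b, 0.40 for Mir200c, 0.24 for Mir141 and 0.47 for Mir429, with a median of -0.01 over all genes and 0.13 over the other microRNA genes. All 5 were above 0, also under scaling to the sum of the other microRNA genes. With median-ratio factors from those genes, chosen after seeing the data, Mir200a moved to -0.23 and Mir141 to -0.07. No member passed 2 log2 units, which 0.0357% of genes did upwards and 0.256% downwards, and 1.85% of the other microRNA genes downwards.

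In FVB/N, too, no member differed by more than the model SD (3.76% of 16471 genes were higher and 1.89% lower by that measure). The log2 ratios were -0.16 for Mir200a, 0.15 for Mir200b, 0.65 for Mir200c, 0.18 for Mir141 and 0.45 for Mir429, beside a median of 0.49 for the other microRNA genes. Scaled to the sum of those genes, all 5 members were below 0, with Mir200b at -0.58 and Mir141 at -0.55. None passed 2 log2 units (0.662% of genes upwards and 0.0182% downwards). The sum of the family was 253 ± 38.6 with vehicle and 272 ± 39.8 with DEHP in FVB/N, and 564 ± 134 and 669 ± 198 in the C57BL/6J pair. The FVB/N log2 ratio minus the C57BL/6J one was -0.14 for the sum and lay between -0.24 and 0.25 for the genes. Scaled to the sum of the other microRNA genes, it was -0.92 for the sum and between -1.01 and -0.47 for the genes. Without replicate values, these data do not tell a lack of response from one smaller than the model SD.

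The second generation of the DEHP lineage, C57.D300.F2, was set against both first-generation C57BL/6J conditions, which makes C57.D300.F2 common to the 2 comparisons. Against C57.CTL.F1, Mir200a was higher by 2.55 times, Mir200b by 2.48 times and Mir429 by 2.02 times, each by more than the model SD (8.72% of 17114 genes, with 18.2% lower). Of the 123 other microRNA genes, 34 were higher by that measure, and their median log2 ratio was 0.50. Scaled to the sum of those genes, the log2 ratio went from 1.34 to 0.78 for Mir200a, from 1.28 to 0.73 for Mir200b and from 0.98 to 0.44 for Mir429. Mir141 was at 624 against 445 counts and Mir200c at 19.7 against 19.5, both within the model SD. The chromosome 4 cluster summed to 240 counts in the second generation, 99.3 in the first with vehicle and 119 with DEHP, and the chromosome 6 cluster to 644, 465 and 550. Against C57.D300.F1, Mir200a (log2 ratio 1.27) and Mir200b (0.89) were higher by more than the model SD (6.47% of 17133 genes, with 15.7% lower), and Mir429 (0.51), Mir141 (0.25) and Mir200c (-0.38) were not outside it. No member passed 2 log2 units in either comparison, where 0.584% and 0.333% of genes were higher and 3.61% and 3.3% lower by that measure. Of the other microRNA genes, 2.44% and 0.826% were that far higher and 8.94% and 6.61% lower. With scaling to the other microRNA genes the log2 ratio of Mir141 moved to -0.07 against C57.CTL.F1 and to -0.34 against C57.D300.F1, and that of Mir429 to -0.06 against C57.D300.F1, where Mir200a moved to 0.69 and Mir200b to 0.31. Generation and library set cannot be told apart in these comparisons.

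**Figure D4:**
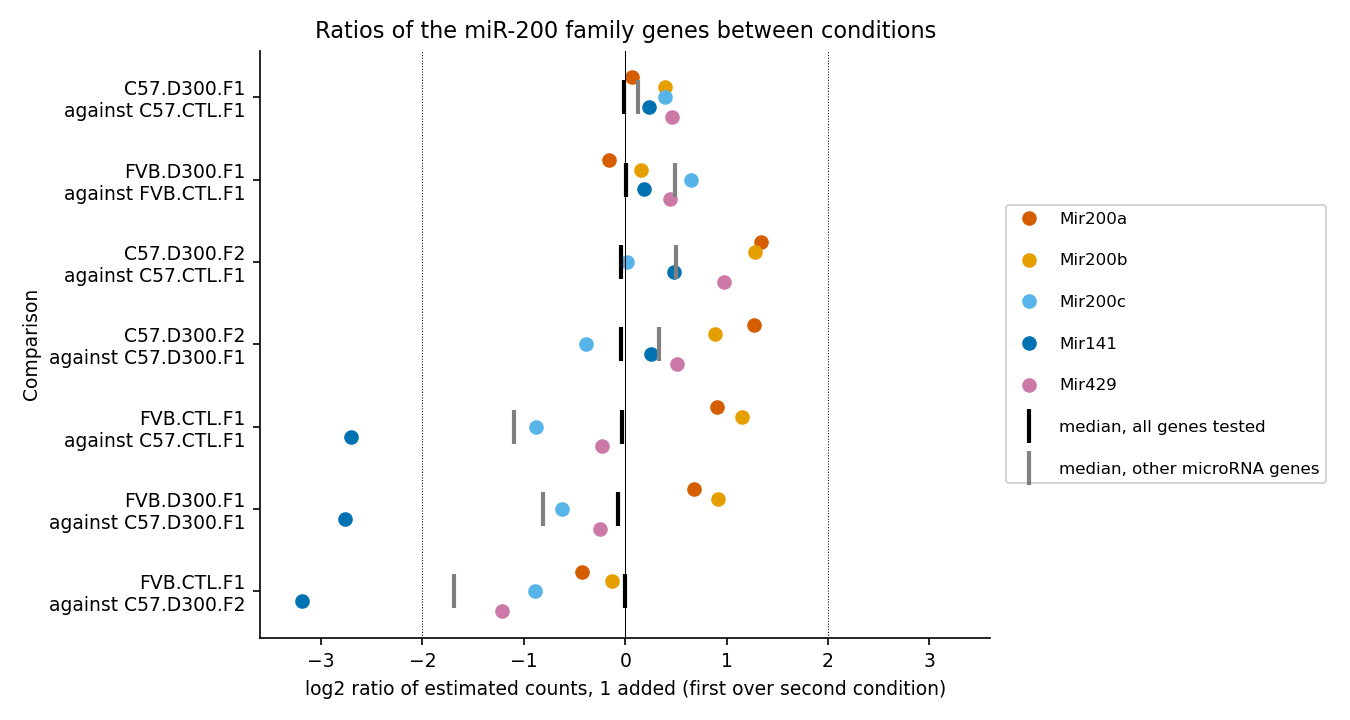
Log2 ratio of estimated counts, with 1 added, of each miR-200 gene in the 7 comparisons, with ticks for the median of all genes tested and of the other microRNA genes and dotted lines at 2 log2 units. Mir141 is past the dotted line in the 3 comparisons of FVB/N with C57BL/6J, at -2.71, -2.76 and -3.19, and no other point is.

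The genes of the miR-200 and ZEB loop were read in the same RNA. In bulk RNA, fewer cells of a type and less RNA per cell cannot be told apart. Zeb1, a repressor of E-cadherin and a known miR-200 target, was counted in C57BL/6J at 232 with vehicle, 290 with DEHP and 225 in the second generation, and in FVB/N at 118 with vehicle and 102 with DEHP. Its relative Zeb2 was counted at 435, 692, 566, 238 and 175 in the same order. Both were lower in the FVB/N conditions than in all 3 C57BL/6J conditions, and in each of the 3 strain comparisons the difference exceeded the model SD. Of the 6 ZEB and related repressors tested between the strains without DEHP, 3 were lower and 1 higher in FVB/N by more than the model SD, with a median log2 ratio of -0.82, where 25.3% of all genes tested were lower and 15.9% higher. The gene higher by that measure was Snai2, a relative of Snai1, at 65.8 against 29.1 counts. Snai1, a repressor of the same promoter, was the member past 2 log2 units lower, at 13.4 against 57.9 counts. Its count was high with vehicle in C57BL/6J only, and lay between 11.1 and 20.4 everywhere else. Between the exposed first-generation males the log2 ratio of Snai1 was -0.50, and against the second generation -0.57, both within the model SD. In this and the lists that follow, directions refer to Cuffdiff's scaling, under which the median gene was at -0.03. The scaling to the other microRNA genes put the median of the ZEB group at 0.10.

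E-cadherin itself, encoded by Cdh1, went the other way, with 1287, 1385 and 1974 counts in the C57BL/6J conditions and 3093 and 3473 in FVB/N, in the order just used. Epcam, an epithelial adhesion molecule, was counted at 1893, 1414, 2241, 3936 and 4075. Dsp, the desmosomal protein desmoplakin, was counted at 1697, 1560, 1608, 2475 and 2280. Each of these genes was higher in both FVB/N conditions than in any C57BL/6J condition. Of 10 epithelial junction and adhesion genes, all 10 had a higher value in FVB/N than in C57BL/6J without DEHP, 6 by more than the model SD (15.9% of all genes) and none by 2 log2 units (1.44%), with a median log2 ratio of 0.65. With median-of-ratios factors, 1 of the 10 fell to the other side of 0. Against C57.D300.F2 within the new libraries, 7 of 10 had a higher value, 4 by more than the model SD (12% of all genes), with a median of 0.44. Cldn3, a claudin of tight junctions, was nearly level, between 1250 and 1530 counts in all conditions.

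Of 11 epithelial transcription and splicing factors tested without DEHP, 9 had a higher value in FVB/N, 5 of them by more than the model SD (15.9% of all genes), and 2 were lower by more than it (25.3%), with a median of 0.43. The 2 lower were Ovol1, at 39.6 against 74.3 counts, and Ovol2, at 17.0 against 35.5. Esrp1, an epithelial splicing regulator, was counted in C57BL/6J at 540 with vehicle, 511 with DEHP and 1102 in the second generation, and in FVB/N at 1066 and 1219, so the 3 new-library conditions were higher than both re-analysed ones. The transcription factor Ehf was counted at 733, 599, 1000, 1075 and 985, with the same division. Elf5, another factor of that family, was counted at 310 in FVB.CTL.F1 against 75.9 in C57.D300.F2, and it was the member past 2 log2 units higher there. Grhl2 was counted at 577, 474, 600, 780.5 and 764, highest in the FVB/N conditions. Elf3 was counted at 514, 389, 561, 819 and 575, with the strains beyond the model SD without DEHP.

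Among 6 mesenchymal genes, Cdh2, which encodes N-cadherin, was the one past 2 log2 units between the strains without DEHP. Its count in C57BL/6J was 261 with vehicle, 329 with DEHP and 33.9 in the second generation, and in FVB/N 11.7 and 13.2, high in the re-analysed conditions only. The list as a whole had 3 members lower by more than the model SD (25.3% of all genes) and a median log2 ratio of -0.39. Fn1, the gene of the matrix protein fibronectin, had the same division, with 7698 and 9942 counts in the re-analysed conditions and between 2461 and 3362 in the others. Cdh2 and Fn1 were among the 3 members lower. The summed liver markers also had that division, at 253703 and 214796 counts against 2892 to 8655. The part of liver RNA in the Cdh2 and Fn1 values was not tested. Vim, the intermediate filament gene vimentin, was counted at 1984, 2437, 2285, 1657 and 1163. The matrix genes Sparc (log2 ratio 0.11) and Fbn1 (0.11) were slightly higher in FVB/N without DEHP, at 6301 against 5820 and 1819 against 1688 counts, within the model SD. Of 17 other reported miR-200 targets tested, 7 were lower in FVB.CTL.F1 by more than the model SD (25.3% of all genes) and none was higher (15.9%), with a median of -0.26. The most abundant, the small GTPase gene Rhoa, was at 1851 against 1940 counts and Sec23a, a gene of vesicle coats, at 825 against 837, both within the model SD. Among those lower were Kdr, a receptor for vascular endothelial growth factor, at 371 against 779 counts, and the apoptosis inhibitor Xiap at 1040 against 1673. Against C57.D300.F2 the list had 4 members lower by more than the model SD (17.1% of all genes) and a median of -0.07. With equal totals the median without DEHP was also -0.07.

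Of 10 microRNA processing genes tested without DEHP, 2 were higher and 1 lower in FVB/N by more than the model SD (15.9% and 25.3% of all genes), with a median of 0.20. Dicer1, whose enzyme cuts the hairpins, lay between 1010 and 1265 counts in all conditions, the hairpin export gene Xpo5 between 919 and 1129, and Ago2, an Argonaute gene, between 487 and 600. Drosha, whose enzyme frees the hairpins from their transcripts, was counted without DEHP at 321 in C57BL/6J and 515 in FVB/N.

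**Figure D5:**
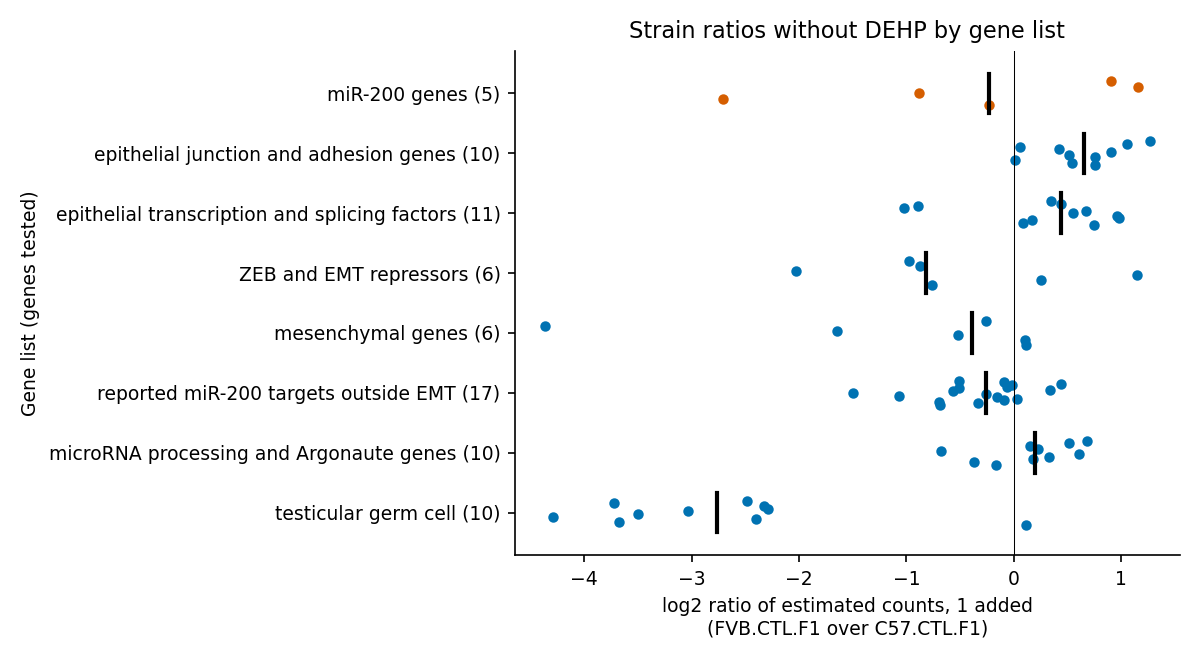
Log2 ratio of estimated counts, with 1 added, of FVB.CTL.F1 over C57.CTL.F1 for genes of 8 lists, each point a gene and each vertical bar the median of the list. The epithelial junction genes lie at or to the right of 0 (median 0.65), the ZEB group is centred at -0.82, and the miR-200 genes are spread on both sides.

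The genes around the clusters were compared in the same way. Ttll10, whose intron holds the chromosome 4 cluster, was counted in C57BL/6J at 188 with vehicle, 149 with DEHP and 143 in the second generation, and in FVB/N at 410 with vehicle and 341 with DEHP. It was higher in both FVB/N conditions by more than the model SD in each strain comparison. It was not higher in C57.D300.F2, where Mir200a and Mir200b were. Of 5 genes near that cluster, 5 had a higher value in FVB/N than in C57BL/6J without DEHP, with Ttll10 the only one beyond the model SD (15.9% of all genes) and a median log2 ratio of 0.51. The most abundant, Sdf4, was at 2778 against 1991 counts. Beside the chromosome 6 cluster, Ptpn6, a tyrosine phosphatase gene, lay at 323 in C57BL/6J and 271 in FVB/N without DEHP, within the model SD, and Phb2, a prohibitin gene, at 560 and 384, beyond it. Lpcat3 was at 302 and 263. Atn1 (502 and 1015) and Eno2 (32.7 and 81.0) were higher in FVB/N by more than the model SD. The 6 genes near that cluster thus divided, with 2 higher (15.9% of all genes) and 1 lower (25.3%) by that measure and a median of -0.23, while Mir141 was at -2.71.

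Markers of other cell types moved with the same comparisons. The 10 testicular germ cell markers all reached 10 counts in every condition, and their sum was 86827 in C57BL/6J with vehicle, 73021 with DEHP and 29381 in the second generation, and 7537 in FVB/N with vehicle and 8747 with DEHP. Their median log2 ratio was -2.76 between the strains without DEHP, with 9 of 10 at least 2 log2 units lower (8.88% of all genes), and -1.78 against C57.D300.F2. The 12 liver markers summed to 253703 and 214796 in the re-analysed conditions and to between 2892 and 8655 in the others, with none at 0. The 18 listed epididymal markers with an estimate in every condition summed to 60114, 28600, 31152, 37723 and 97205 in the order above. They include Pate4 (Svs7), which the study groups with the seminal vesicle secretory proteins. Pate4 alone held 35622 counts in C57.CTL.F1 and between 25.2 and 57.1 elsewhere. Without Pate4 the sum was 24493 in C57.CTL.F1, the lowest of the 5 conditions. Adam7 made up most of the sum without Pate4 in each condition, with 23918, 28056, 30429, 37310 and 53922 counts in the same order. Crisp1 had an estimate only in C57.CTL.F1 (108274) and FVB.D300.F1 (219328), so it was left out of these sums. At least 10 counts were reached by 9 of the 19 listed markers in FVB.CTL.F1 and by 19 in FVB.D300.F1. The 8 seminal vesicle markers summed to 203160 in C57.CTL.F1 and to between 1122 and 2485 elsewhere, where 1 was at 0 in FVB.D300.F1. Prostate and coagulating gland markers (6) summed to 14845 in C57.CTL.F1 and to between 45.8 and 283 elsewhere, with up to 2 at 0. Spink1 alone held 14805 counts in C57.CTL.F1 and at most 4.49 elsewhere. Tgm4 and Pbsn were instead highest in C57.D300.F2, at 200 and 62.7 counts against 30.1 and 2.74 in C57.CTL.F1. Between FVB.CTL.F1 and FVB.D300.F1, whose epididymal marker sums were 37723 and 97205, the summed miR-200 count was 253 and 272. The 10 epithelial junction and adhesion genes had a median log2 ratio of 0.03 there, with 6 higher and 4 lower. The marker sum is thus no measure of the amount of epithelium. The part of these cell types in the miR-200 values was not tested. Smooth muscle and connective tissue markers (8) summed to between 34265 and 55061 and blood markers (7 found) to between 3005 and 10513. The blood sum mixes globins with white blood cell genes. Of the latter, Ptprc was counted at 306, 490 and 249 in C57BL/6J and at 116 and 132 in FVB/N. Cd74, Lyz2 and Jchain were likewise lower in both FVB/N conditions than in any C57BL/6J condition, as Zeb1 and Zeb2 were. The globin gene Hba-a2 was instead highest in FVB.D300.F1, at 2213 counts. The part of blood cells in the Zeb1 and Zeb2 values was not tested.

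Among 141 microRNA genes and 17696 genes in all, those with a profile nearest to that of the summed miR-200 count were found by the root mean square distance between centred log2 counts over the 5 conditions. The nearest microRNA genes were Mir140 (distance 0.12), Mir25 (0.14), Mir130c (0.17), Mir186 (0.21) and Mir30e (0.22). Mir130c was near 0 in FVB.CTL.F1, at 2.81 counts, and reached 10 counts only in C57.D300.F1, at 10.3. Mir140 had 9.60 counts in FVB.CTL.F1. Mir25 had 36.5, 43.2, 70.2, 14.8 and 19.6 counts in the order used above. The nearest other genes were Neu2 (0.07), Scn3a (0.08), Triml1 (0.10), Slc43a3 (0.11) and Pde3a (0.11). The members themselves lay between 0.47 for Mir200c and 1.04 for Mir200b from the sum. The named genes were nearer largely because they were picked as the nearest of many.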

How the data were processed

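Sperm RNA was depleted of ribosomal RNA, fragmented, end-treated and made into libraries with a TruSeq small RNA kit, per the labels. Reads were called with CASAVA 1.8.2, aligned to mm10 with TopHat and quantified with Cuffdiff by strand, per the study's methods and the submitters' processing notes. The Cuffdiff version and annotation release are not given in the sources used here. The deposited table held an estimated count, used as a signal, with its model variance and status, for each gene and condition. The authors pooled 5 libraries into each value, so there is no error between libraries, no n of replicates for a value, and no test.

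Log2 ratios were taken after adding 1 count. A gene was tested if it reached 10 counts in 1 of both conditions and was called at 2 log2 units. No scaling was added to that of Cuffdiff. Variances of sums and differences were added as if independent. Failed estimates (71 genes, among them 3 microRNA genes) were left out. MicroRNA genes were symbols beginning with Mir and a digit or with let7, without host genes (symbols ending in hg). Values under 3 counts were read as near 0. Positions came from GENCODE M21 and sequences from RefSeq, where all 5 members matched.

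The members and lists were chosen with earlier results of these data known. Named genes were the members, up to 4 members of highest mean count of each pathway and neighbour list and those past 2 log2 units, Zeb1, Zeb2 and Cdh1, and the nearest profiles. The marker lists are given as sums without that naming. Eno2, Ovol1, Ovol2, Pate4, Adam7, Crisp1, Spink1, Tgm4, Pbsn, Ptprc, Cd74, Lyz2, Jchain and Hba-a2 were named after their values were seen. Alternatives were 4 other scalings, pseudocounts of 0.1 and 10, another minimum (none or 100), a threshold of 1 log2 unit, values under 3 set to 3, and sums without each member. A scaling by median ratios over other microRNA genes was chosen after seeing the data. Python 3.11.15, numpy 2.4.6, pandas 2.3.3 and matplotlib 3.10.9 were used, and the scripts were tested on simulated data.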

Additional observations from a re-analysis of the deposited data

How the results depend on the processing

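Of 320 log2 ratios of single members under alternatives, 270 moved by less than 0.5 and 31 changed sign, these under scalings to microRNA genes except for 3. With equal totals the strain difference of the response of Mir200c went from 0.25 to -0.01, and with median-of-ratios factors Mir429 went there from -0.02 to 0.01 and Mir200c between the second generation and vehicle from 0.01 to -0.03. Equal totals and upper-quartile scaling shifted the median of all genes by at most 0.31 and 0.22. Under scaling to the summed count of the other microRNA genes, the log2 ratio of the family sum moved from 0.10 to -0.64 for DEHP in FVB/N, from 0.65 to 0.092 for C57.D300.F2 against C57.CTL.F1, from 0.40 to -0.19 against C57.D300.F1, from -1.15 to -0.21 for FVB.CTL.F1 against C57.CTL.F1, from -1.80 to -0.31 for FVB.CTL.F1 against C57.D300.F2, and from -0.14 to -0.92 for the strain difference of the response. With median ratios over those genes it was 0.015 for C57.D300.F2 against C57.CTL.F1, -0.27 for FVB.CTL.F1 against C57.CTL.F1, -0.57 for FVB.D300.F1 against C57.D300.F1 and -0.29 for FVB.CTL.F1 against C57.D300.F2. The sum of the other microRNA genes itself differed between conditions, which by construction moves these values. Without Mir141, the sum gave 0.64, 0.43 and -0.48 in the 3 strain comparisons, and without Mir200a it gave -1.72 for FVB.CTL.F1 against C57.CTL.F1. The lower family sum of FVB/N in both comparisons with C57BL/6J of like exposure therefore rests on Mir141, which kept its direction there under every scaling tried. The pathway and neighbour lists held 72 genes. At 1 log2 unit in place of 2, 2 of these passed for DEHP in C57BL/6J. For C57.D300.F2, 6 passed against C57.CTL.F1 and 4 against C57.D300.F1, and 12, 21 and 6 passed in the strain comparisons. With a minimum of 100 counts 1 passed between the strains without DEHP. The shares of all genes under these settings are not given here, so these numbers are not read as a result about the lists. No paired analysis was possible because each value pools the 5 libraries of a condition, and for the same reason no library could be left out. Pooling and counts of 10.2 to 42.9 limit what can be read for Mir200c and Mir429.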
